A study of Bos taurus with 252 samples.

Results

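Heme, the iron porphyrin that hemoglobin carries, is made by a chain of enzymes that starts and ends in the mitochondrion. 7 of these enzymes, ALAS2, ALAD, UROS, UROD, CPOX, PPOX and FECH, were described here across all groups and days. They were chosen by their place in the pathway and not by their values, though with earlier results of these data known. The remaining enzyme of the pathway is not analysed here. All 7 were in the table of 33282 genes, and all 7 were among the 19056 genes kept after a filter on low counts (above 0.2 CPM in at least 12 libraries). Levels are CPM, the counts of a gene relative to the total of its library, after scaling by the trimmed mean of M values, and since they are not per transcript length, no level is compared between genes.

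The study compared whole blood of crossbred steers after a single dose of 1 of 6 antimicrobials given to prevent bovine respiratory disease. There were 7 groups of 6 steers each. The macrolides were tildipirosin (TILD) and tulathromycin (TULA), the cephalosporin was ceftiofur (CEFT), the phenicol was florfenicol (FLOR), the fluoroquinolone was enrofloxacin (ENRO) and the tetracycline was oxytetracycline (OXYT), while the group NC had no antimicrobial. Blood was drawn from each of the 42 steers before the dose (day 0) and again after 3, 7, 14, 21 and 56 days, which gave 6 libraries a steer. All steers, NC included, had received tildipirosin, a trenbolone acetate and estradiol implant, antiparasitic drugs and vaccines before they arrived at the feedlot. Each group lived in its own pen and the groups were handled in a fixed order, so that pen and order cannot be told apart from treatment, and the age of the steers is not given in the sources used here.

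ALAS2, the X-linked erythroid 5-aminolevulinate synthase, joins glycine to succinyl-CoA and sets the pace of heme synthesis in developing red cells. ALAD condenses the product to porphobilinogen, UROS closes the tetrapyrrole ring and UROD removes carboxyl groups from it. CPOX then oxidises side chains of the ring, PPOX oxidises the ring itself, and FECH inserts iron. All cells need some heme for their cytochromes, so every blood cell type can hold these transcripts apart from ALAS2, which is tied to erythroid cells. In blood the erythroid RNA lies largely in reticulocytes, the young red cells that have left the marrow and still hold RNA. In bulk samples such as these, fewer cells of a type and less RNA per cell cannot be told apart.

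The libraries held 26.1 to 74.1 M counts, with a median of 43.6 M, and the group medians ran from 33.6 M in TILD to 50.7 M in ENRO. Hemoglobin genes took 0.00402% to 25.5% of the counts of a library, with a median of 0.900%, and 17 libraries were above 10%. The steers were sequenced on 3 lanes with 14 steers each. NC and ENRO were wholly on lane 1, TULA on lane 2, CEFT and OXYT on lane 3, FLOR on lanes 1 and 2, and TILD on lanes 2 and 3. A steer kept its lane on every day.

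The first question was how the enzymes moved over the 56 days. ALAS2, ALAD, UROS and UROD rose from day 0 and were highest around days 14 and 21, CPOX fell and stayed low through day 56, PPOX rose by day 14, and FECH stayed within 0.04 of its day 0 level on the log2 scale. In edgeR's quasi-likelihood test with the steer as a block, 6 of the 7 enzymes changed over the 6 days at a false discovery rate (FDR) of 0.05, against 77% of all genes tested, so the share of enzymes was near the background. FECH did not pass (FDR = 0.185). Over the 15 pairs of days the enzymes passed in 59 of 105 tests, 43 higher and 16 lower on the later day, where 41.4% of all tests passed.

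**Figure D1:**
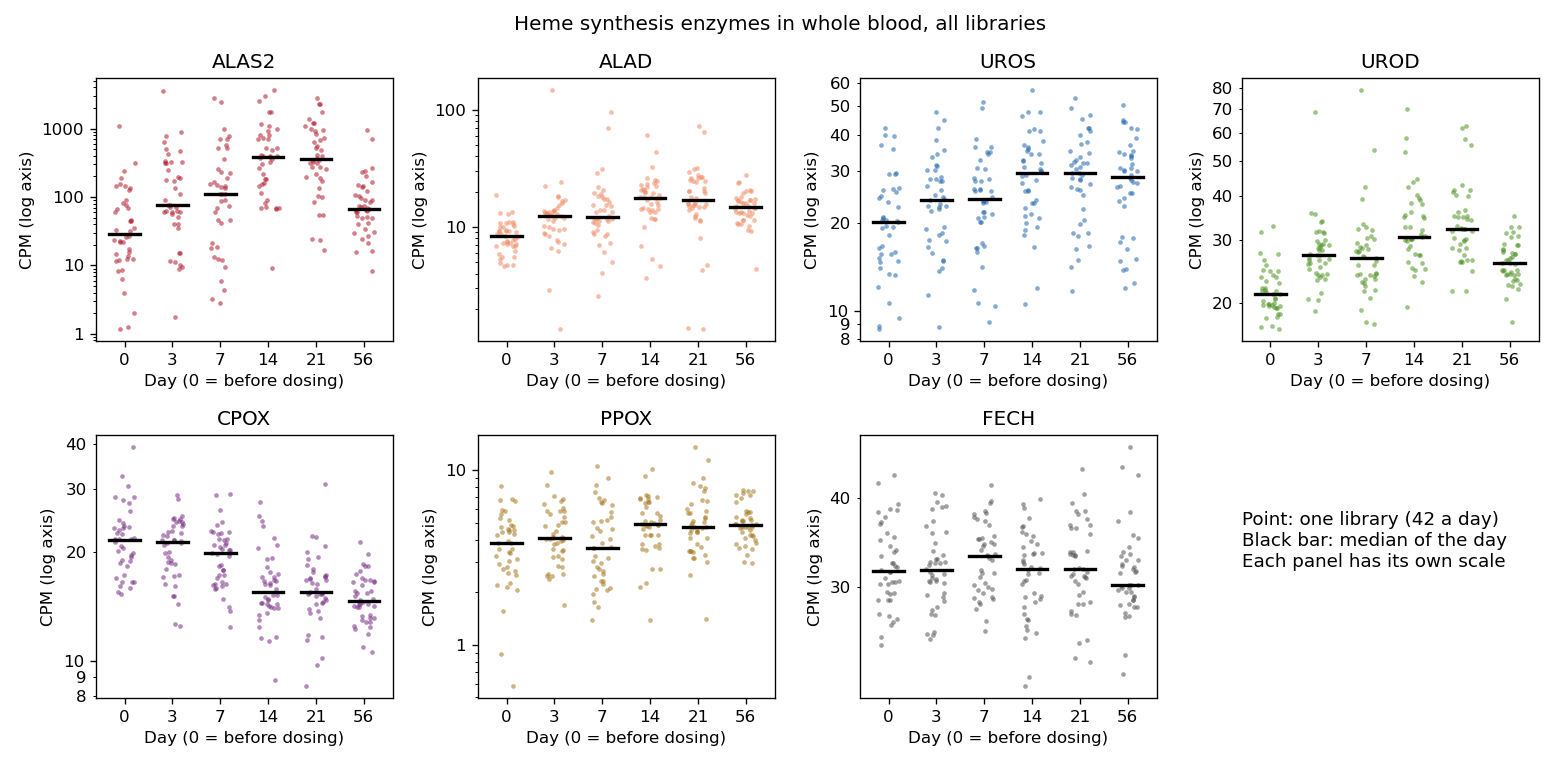
Level of each enzyme in CPM (vertical axis, logarithmic, with its own scale in each panel) on each sampling day (horizontal axis). Points are single libraries, 42 on each day, and black bars are medians; the ALAS2 median climbed from 29.2 on day 0 to 388 on day 14 and was 67.5 on day 56, while the FECH medians stayed between 30.2 and 33.2.

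ALAS2 had the widest range of the enzymes. On day 0 its level ran from 1.17 to 1099 CPM with a median of 29.2. On day 3 it ran from 1.75 to 3601 CPM with a median of 76.9, and on day 7 from 2.79 to 2766 CPM with a median of 112. The days overlapped widely, and the median rose at every step up to day 14. On day 14 the level ran from 9.07 to 3622 CPM with a median of 388, on day 21 from 17 to 2758 CPM with a median of 361, and on day 56 from 8.19 to 939 CPM with a median of 67.5.

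Within steers ALAS2 was 8.73-fold higher on day 14 than on day 0 (log2 fold change 3.13 ± 0.38, SE, n = 42 steers, edgeR FDR = 7.8e-14) and 9.05-fold higher on day 21 (95% interval 5.41 to 15.1). It was higher on day 14 than on day 0 in 42 of 42 steers. In steer Enro9 the difference was only 0.00069 on the log2 scale, at 142.7 CPM on both days. By day 56 it was still 1.91-fold above day 0 (edgeR FDR = 0.018), with 29 of 42 steers higher. From day 21 to day 56 it fell by 2.25 on the log2 scale (SE 0.36, edgeR FDR = 1.2e-06) and was lower in 37 of 42 steers. In the order of days, ALAS2 did not pass on day 56 against day 3 (log2 fold change -0.49, 95% interval -1.17 to 0.20, edgeR FDR = 0.255). Against day 7 it did not pass on day 56 either (-0.64, -1.33 to 0.05, FDR = 0.121). Nor did it pass between days 3 and 7 (FDR = 0.825) or between days 14 and 21 (FDR = 0.954). The rise was not at the same time in every steer: ALAS2 was highest on day 14 in 18 steers, on day 21 in 14, on day 3 in 5, on day 7 in 3 and on day 56 in 2.

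UROD, the uroporphyrinogen decarboxylase, moved the same way over a smaller range. Its level ran from 16.9 to 32.9 CPM on day 0 (median 21.2), from 21.6 to 62.7 on day 21 (median 32.3) and from 17.7 to 35.2 on day 56 (median 26). The day 21 levels reached far above those of day 0, though the lowest steers of day 21 lay among those of day 0. UROD was 1.55-fold higher on day 21 than on day 0 (log2 fold change 0.63 ± 0.06, SE, edgeR FDR = 1.7e-20), with 40 of 42 steers higher. Between days 21 and 56 it fell by 0.36 on the log2 scale (edgeR FDR = 1.7e-06) in 36 of 42 steers, and ALAS2 and UROD were the only 2 of the 7 enzymes that passed in that step, where 6.27% of all genes passed.

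ALAD, which makes porphobilinogen, ran from 4.68 to 18.6 CPM on day 0 (median 8.34), from 3.65 to 60.6 on day 14 (median 17.8) and from 4.43 to 27.8 on day 56 (median 14.8). It was 2.08-fold higher on day 14 (log2 fold change 1.06 ± 0.15, SE, edgeR FDR = 3.6e-10) and 1.76-fold higher on day 56 (0.82 ± 0.15, edgeR FDR = 7.4e-07), and 37 of 42 steers were higher on each of these days. UROS, the uroporphyrinogen III synthase, had medians of 20.2 CPM on day 0, 29.6 on days 14 and 21 and 28.8 on day 56. It was 1.42-fold higher on day 14 (log2 fold change 0.51 ± 0.04, SE, edgeR FDR = 3.9e-25, 40 of 42 steers) and 1.35-fold higher on day 56 (edgeR FDR = 5.1e-20, 39 of 42 steers). Neither ALAD nor UROS passed between days 21 and 56: ALAD differed by -0.30 (95% interval -0.60 to -0.00043) and UROS by -0.07 (-0.15 to 0.01) on the log2 scale.

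CPOX, the coproporphyrinogen oxidase, went the other way. On day 0 it ran from 15.3 to 39.2 CPM (median 21.7), on day 14 from 8.83 to 27.6 (median 15.5) and on day 56 from 10.6 to 21.4 (median 14.6). Its day 56 levels overlapped only with the lower levels of day 0. CPOX fell by 0.42 by day 14 and by 0.54 by day 56 on the log2 scale (SE 0.05 for both, edgeR FDR = 9.4e-16 and 1.2e-22), and it was lower on day 56 than on day 0 in 42 of 42 steers. It was never higher on the later day in any of the 10 pairs of days in which it passed.

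PPOX, the protoporphyrinogen oxidase, was measured on 24 to 460 counts in a library. It ran from 0.581 to 8.11 CPM on day 0 (median 3.84) and from 1.40 to 13.6 on day 21 (median 4.74), with wide overlap. It was 1.35-fold higher on day 21 (log2 fold change 0.43 ± 0.12, SE, edgeR FDR = 0.00085), in 31 of 42 steers. FECH, the ferrochelatase, had medians of 31.6, 31.7, 33.2, 31.8, 31.9 and 30.2 CPM in the order of the days. On day 21 its log2 fold change against day 0 was -0.00057 (95% interval -0.06 to 0.06). FECH passed in 2 of the 15 pairs, both against day 7: it was lower by 0.08 on the log2 scale on day 14 (edgeR FDR = 0.030) and lower by 0.07 on day 56 (FDR = 0.043).

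Counted step by step, 4 of the 7 enzymes had risen and none had fallen by day 3 (38.8% of all genes passed on that day against day 0). By day 7 the counts were 4 and 1 (43.7% of all genes). On days 14, 21 and 56 they were 5 and 1 (62.7%, 64.2% and 63.2% of all genes). Between days 7 and 14, 6 of 7 passed, ALAD being the exception (edgeR FDR = 0.056), where 47% of all genes passed. No enzyme passed between days 3 and 7 (19.5% of all genes) or between days 14 and 21 (12.1%), and none of these 14 edgeR tests had an unadjusted p under 0.05. The median of all genes moved by at most 0.03 on the log2 scale in any pair of days.

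**Figure D2:**
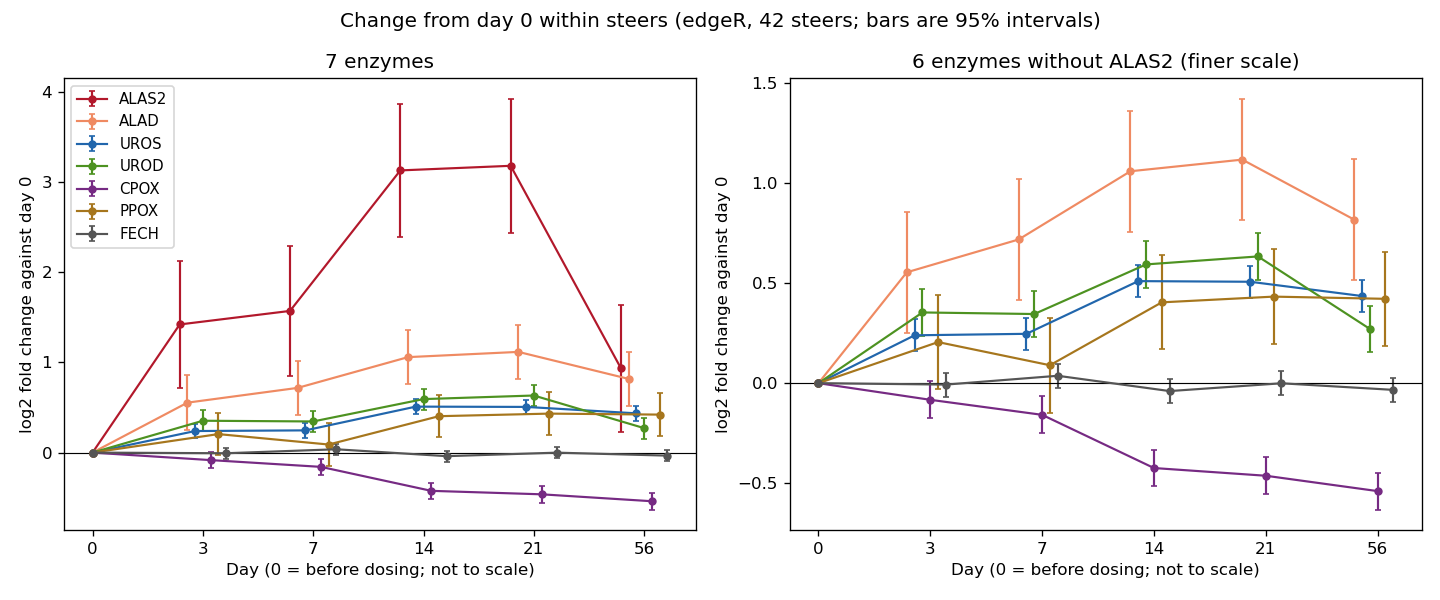
Fitted log2 fold change against day 0 (vertical axis) on days 3 to 56 (horizontal axis) for the 7 enzymes, and on the right for 6 enzymes without ALAS2 on a finer scale. Points are edgeR estimates over 42 steers and bars are 95% intervals; ALAS2 and UROD turned down after day 21, CPOX went below 0 and FECH stayed on the line of no change.

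The steers of each lane gave the same directions on days 14 and 56 for the enzymes that passed. With 14 steers a lane, the fall of CPOX and the rises of UROS and UROD on day 14 passed on every lane. The day 14 rise of PPOX did not pass on lane 1 (log2 fold change 0.28, edgeR FDR = 0.250) or lane 2 (0.42, FDR = 0.077), and the day 56 rise of ALAS2 passed on no single lane (0.45, 1.15 and 1.23 on lanes 1, 2 and 3). On day 56, UROD did not pass on lane 1 (0.21, edgeR FDR = 0.145) and PPOX did not pass on lane 1 (0.31, FDR = 0.188) or lane 2 (0.43, FDR = 0.070). Leaving out the 17 libraries above 10% hemoglobin, chosen after the data were seen, gave the same 6 of 7 enzymes for the day effect and 61 in place of 59 passing pairs.

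Erythroid markers rose over the same days as ALAS2 and UROD, while CPOX fell and FECH did not pass. Of 28 tested erythroid markers (hemoglobin chains, membrane proteins and transcription factors of red cells), 21 rose and 2 fell by day 14, the same counts held on day 21, and on day 56 only 4 were higher and 3 lower than on day 0. Of all genes, 62.7%, 64.2% and 63.2% passed on days 14, 21 and 56. Their summed level had a median of 3822 CPM on day 0 (1091 to 39610), 36320 on day 21 (1729 to 262300) and 4529 on day 56 (1130 to 134000). Hemoglobin genes made up much of this sum, with medians of 0.224%, 3.36% and 0.334% of the counts on these days. Among them HBB, a hemoglobin beta chain, rose by 3.29 on the log2 scale by day 14, and was 0.76 above day 0 on day 56 (edgeR FDR = 0.086). EPOR, the erythropoietin receptor, had a median of 0 CPM, and RHAG and KEL had medians under 1 CPM.

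Markers of other blood cells moved as well. Of 8 tested T cell markers 7 rose and 1 fell by day 14, and of 6 B cell markers 5 rose and 1 fell. All 6 monocyte markers were lower than on day 0 from day 7 on. Of 10 neutrophil markers 6 fell and none rose by day 14, and CXCR2, LTF, CATHL1 and CATHL2 did not pass, of which both cathelicidins were at 0 in some libraries. Of 7 platelet markers 5 were higher on day 3 and 1 was higher on day 14. The shares of all genes that passed against day 0 were 38.8% on day 3, 43.7% on day 7 and 62.7% on day 14. They were 64.2% on day 21 and 63.2% on day 56. The summed medians on days 0 and 14 were 1702 and 2404 CPM for T cells, 1675 and 2080 for B cells, 2212 and 1434 for monocytes, 3890 and 2733 for neutrophils and 938 and 1131 for platelets. The part of these shifts in the changes of the enzymes was not tested.

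Within steers, ALAS2 followed the erythroid markers and the other enzymes did so less or not at all. After subtracting each steer's mean, the correlation over all libraries with the summed erythroid markers was 0.96 for ALAS2, 0.78 for UROD, 0.55 for ALAD, 0.50 for UROS, 0.17 for PPOX and FECH, and -0.30 for CPOX. CPOX ran with the summed monocyte markers (0.63) and against the summed T cell (-0.76) and B cell markers (-0.64). UROS ran with the T cell (0.76) and B cell markers (0.71) and against the monocyte markers (-0.56). Much of the erythroid sum is hemoglobin, so its correlations do not speak for each marker of the list. These correlations describe libraries that share their steers, days and scaling.

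The genes whose level most resembled each enzyme, by the same measure over all libraries, differed along the pathway. ALAS2 was nearest to HBB (0.97), HBA1 (0.95) and REEP1 (0.95). UROD was nearest to FKBP8 (0.93), SLC25A39 (0.92), a mitochondrial carrier, and HMG20B (0.90). ALAD shared 2 of these, HMG20B (0.68) and FKBP8 (0.68), followed by UROD itself (0.67). UROS was nearest to DNAJB2, TPRA1 and SH3GLB2 (0.88, 0.87 and 0.86), and CPOX to DRAM2, SEC23A and SMARCA5 (0.87, 0.87 and 0.86). No gene came closer to PPOX than CDK5 (0.49), or to FECH than DIP2A (0.61).

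Other genes of heme and iron handling were read from a list of 30, of which 29 were tested. On day 14, 10 were higher and 9 lower than on day 0, and on day 56, 8 were higher and 10 lower, so the share that passed was near that of all genes on both days (62.7% and 63.2%). BLVRB, a biliverdin reductase of red cells, followed the time course of ALAS2, with medians of 41 CPM on day 0, 89.9 on day 21 and 44.5 on day 56 (log2 fold change 1.08 on day 21 and 0.19 on day 56). ALAS1, the synthase of other tissues, differed from day 0 by -0.03 on day 14 and 0.19 on day 21. TFRC, the transferrin receptor, fell by 0.91 by day 14 (edgeR FDR = 0.026) and by 1.09 by day 56 (FDR = 0.0081).

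IREB2, an iron regulatory protein, fell by 0.67 by day 56 (edgeR FDR = 9.6e-27), and FLVCR1, a heme exporter, by 0.65 (FDR = 1.2e-21). SLC25A37, the mitochondrial iron importer of erythroid cells, fell by 0.74 by day 56 (FDR = 0.0012). SLC48A1, a heme transporter, rose by 0.48, SLC25A28, the related iron importer of other cells, by 0.31, and BLVRA, the other biliverdin reductase, by 0.17, with FDR of 3.3e-25, 2.8e-15 and 3.9e-05. The median of the list was -0.02 on day 14 and -0.01 on day 56 on the log2 scale, beside 0.03 and 0.02 for all genes.

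The second question was how far steers differed. UROS stood out: 80.6% of the variance of its log2 CPM lay between steers and 10.4% between days, where the medians of all genes were 38.6% and 8.36%. The steer means of UROS ran from 10.4 CPM in steer Oxyt5 to 49.1 in steer Ceft5, a 4.71-fold range with a median of 26.3. Oxyt5 lay between 8.80 and 12 CPM and Ceft5 between 39.95 and 56.7 CPM over the 6 days. Steers near them changed places. Tula8 was below Oxyt5 on day 0, and Enro5 and Enro2 were below it on day 7. Flor3 was above Ceft5 on day 0, and Tild10 was above it on days 3 and 7. The share of UROS between steers was above that of 96.3% of the genes tested.

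For FECH 56.8% of the variance lay between steers and 1.71% between days, and its steer means ran from 25.7 to 39.5 CPM. CPOX was split more evenly, with 38.3% between steers and 33% between days. For ALAS2 the shares were 32.2% and 28.4%, and its steer means ran from 12.2 CPM in Flor6 to 1623 in NC5. ALAD and PPOX left most of their variance, 62.7% and 66.7%, to differences between libraries of a steer beyond the mean course of days. Each steer belonged to 1 treatment group, so the share between steers includes that between groups. The share between groups was 19.5% for FECH, 11.4% for CPOX, 10.9% for PPOX and 6.71% for UROS. It was 6.12% for ALAS2, 4.46% for ALAD and 0.592% for UROD, where the median of all genes was 7.27%.

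**Figure D3:**
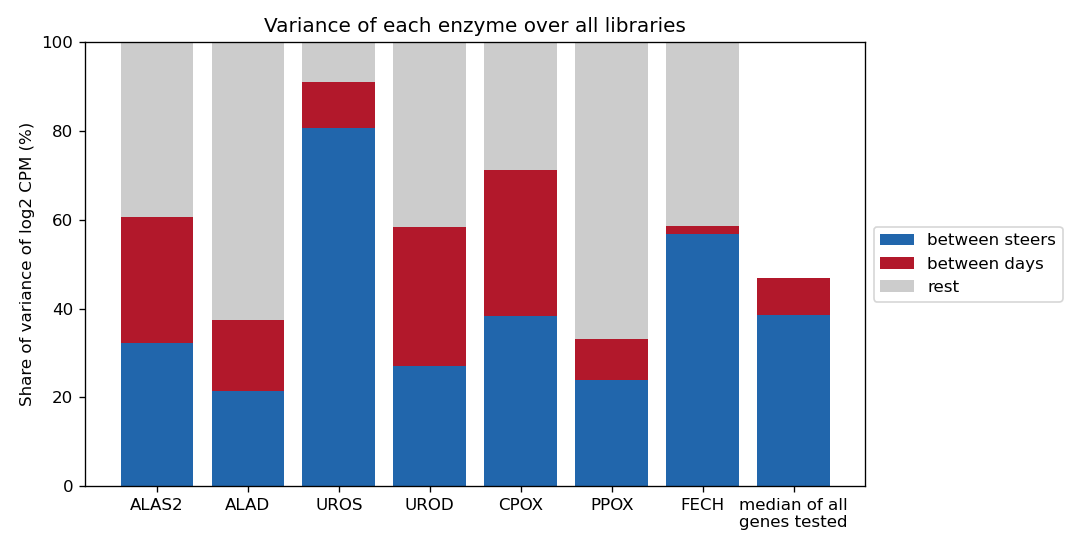
Share of the variance of log2 CPM over all libraries (vertical axis, percent) that lies between steers, between days and in the rest, for each enzyme. The last bar gives the medians of the first and second share over all genes tested, without a rest; UROS had 80.6% between steers, FECH 56.8% with 1.71% between days.

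Steers high in 1 enzyme were high in some others. Over the 42 steer means, the correlation of ALAS2 with UROD was r = 0.72 (rho = 0.68, permutation p = 1e-05 for both, the smallest that 100000 permutations can give, adjusted p = 0.00021 over 21 pairs). It was 0.65 without the 2 steers farthest from the median, and 0.80, 0.75 and 0.75 on lanes 1, 2 and 3. ALAD with UROD gave r = 0.63 (rho = 0.52, adjusted permutation p = 0.00021 and 0.0043), 0.45 without the 2 farthest steers, and 0.81, 0.40 and 0.58 by lane. ALAS2 with ALAD gave r = 0.44 (rho = 0.41, adjusted permutation p = 0.027 and 0.036), 0.36 without the 2 farthest steers, and 0.67, 0.29 and 0.43 by lane.

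PPOX ran with ALAD (r = 0.39, rho = 0.51, adjusted permutation p = 0.035 and 0.0043; 0.43, 0.44 and 0.54 by lane) and against FECH (r = -0.395, rho = -0.405, adjusted p = 0.035 and 0.036; -0.53, -0.24 and -0.50 by lane). CPOX ran against PPOX (r = -0.43, rho = -0.34, adjusted permutation p = 0.027 and 0.081; -0.29, -0.49 and -0.41 by lane) and with FECH (r = 0.37, rho = 0.37, adjusted p = 0.043 and 0.061; 0.14, 0.37 and 0.48 by lane). Without the 2 farthest steers these 4 values were 0.45, -0.45, -0.44 and 0.43. The TILD steers were together low in CPOX and FECH and high in PPOX. Over the 36 steers of the other groups, a choice made after the data were seen, PPOX with ALAD gave r = 0.36, PPOX with FECH -0.12, CPOX with PPOX -0.21 and CPOX with FECH 0.19, and none of the 4 passed by r (adjusted permutation p from 0.136 to 0.620), though PPOX with ALAD passed by rho (0.48, adjusted p = 0.016). ALAS2 with UROD (0.74), ALAD with UROD (0.70) and ALAS2 with ALAD (0.50) passed there by both. UROS correlated with no other enzyme over steers, the farthest from 0 being FECH (r = 0.25, rho = 0.28, adjusted permutation p = 0.237 and 0.149).

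Against the summed markers of the 6 cell types, 42 relations were computed, and much of the erythroid sum is hemoglobin. ALAS2 followed the erythroid markers over steers (r = 0.95, rho = 0.92, permutation p = 1e-05 for both, adjusted p = 0.00014 and 0.00042; 0.93 without the 2 farthest steers; 0.92, 0.97 and 0.93 by lane), as did UROD (r = 0.71, rho = 0.60, adjusted p = 0.00014 and 0.00042; 0.61 without the 2 farthest; 0.78, 0.73 and 0.73 by lane). ALAD ran with the erythroid markers by r only (r = 0.44, rho = 0.33, adjusted permutation p = 0.030 and 0.196; 0.31 without the 2 farthest; 0.71, 0.22 and 0.41 by lane). ALAD followed the T cell markers (r = 0.63, rho = 0.53, adjusted permutation p = 0.00014 and 0.0066; 0.57 without the 2 farthest; 0.81, 0.48 and 0.54 by lane). FECH ran against the neutrophil markers (r = -0.47, rho = -0.45, adjusted permutation p = 0.019 and 0.030; -0.39 without the 2 farthest; -0.43, -0.48 and -0.52 by lane).

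ALAS2 and ALAD had single libraries far from the rest of their steer. After subtracting the day means, 43 libraries lay over 4-fold from the median of their steer in ALAS2, 6 did so in ALAD, 1 in PPOX, and none in UROS, UROD, CPOX or FECH. ALAD was at 1.35 CPM (55 counts) in Flor8 on day 21, where the other days of that steer lay between 9.44 and 15.4 CPM. It was at 1.35 CPM (60 counts) in Ceft5 on day 3 and at 1.39 CPM (69 counts) in Oxyt9 on day 21. ALAD was at 2.60 CPM (131 counts) in Enro10 on day 7. In this last library UROD was also at the lowest of its steer, 23.9 CPM, while ALAS2 was 362 CPM (164 to 2300 over its days). In Oxyt9 on day 21 ALAS2 was 24.5 CPM, above its levels on days 0 and 3 (17.3 and 9.33). In Flor8 on day 21 ALAS2 and UROD were at the highest of that steer, 256 and 28.6 CPM. In Ceft5 on day 3 ALAS2 was 194 CPM (26.1 to 404 over its days).

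Steer Tild3 gave the opposite: 146 CPM of ALAD on day 3 and 95.6 on day 7, against 4.34 to 12.3 on its other days. On days 3 and 7 the same libraries held 3601 and 2483 CPM of ALAS2 and 68.7 and 53.6 CPM of UROD, the highest of that steer. On days 14 and 21 ALAD of Tild3 was 4.65 and 4.34 CPM, below its day 0 level of 5.93, while its ALAS2 was still 813 and 402 CPM. Without the 6 ALAD libraries, the same 6 of 7 enzymes passed the day effect and 60 of 105 pairs of days passed.

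**Figure D4:**
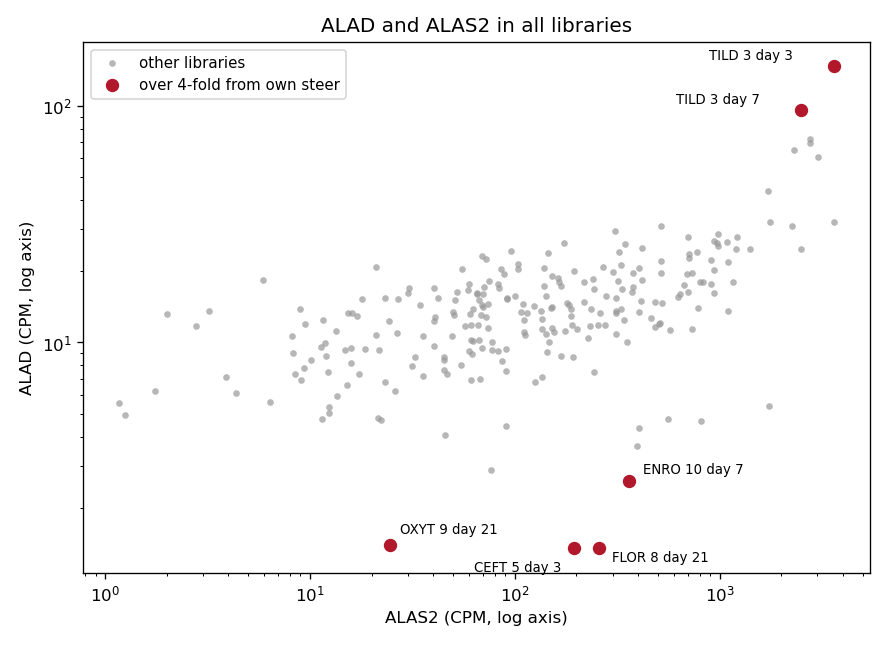
Level of ALAD (vertical axis, CPM, logarithmic) against ALAS2 (horizontal axis, CPM, logarithmic) in all libraries. Red points are the 6 libraries over 4-fold from the median of their own steer in ALAD; 4 lie below the cloud, at 1.35 to 2.60 CPM, and the 2 of steer Tild3 lie at 95.6 and 146 CPM.

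The third question was whether an antimicrobial changed the enzymes. On single days, 6 treated against 6 NC steers, 1 test over the 36 comparisons and 7 enzymes passed at an FDR of 0.1, where 0.51% of all tests passed, and 28 had an unadjusted p under 0.05 (edgeR). That test was CPOX in FLOR on day 3. FLOR ran from 14.4 to 19.9 CPM with a median of 17.5, and NC from 21.7 to 28.1 CPM with a median of 22.4, so the groups did not overlap. The share of all genes without overlap is not given here. CPOX fell by 0.43 against NC on the log2 scale (SE 0.11, edgeR FDR = 0.092). The call was kept in 1 of 12 fits that left out a steer, that without Flor4, with FDR from 0.085 to 0.193. FLOR was partly on lane 2 and NC wholly on lane 1, and the call was lost with lane as a term (edgeR FDR = 0.581) and after ComBat_seq by lane (FDR = 0.30).

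By change from day 0 against that of NC, 1 of 210 tests passed, where 0.588% of all tests passed, and 12 had an unadjusted p under 0.05. UROS rose from day 0 to day 7 in 5 of 6 NC steers (mean log2 difference 0.38 ± 0.34, SD, n = 6), and in 3 of 6 ENRO steers (-0.01 ± 0.38). The difference between the groups was -0.39 (SE 0.15, edgeR FDR = 0.097), and NC and ENRO shared lane 1. The call was lost with no filter on low counts (FDR = 0.152), with DESeq2 size factors (FDR = 0.103) and with no replicate block (FDR = 0.904). Over all days at once, 0 of 42 interactions of day and group passed at an FDR of 0.05 (edgeR, lowest FDR 0.087, for UROS in ENRO; 7 with an unadjusted p under 0.05), where 2.14% of all such tests passed. The same 42 tests without the steer block also gave 0.

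Over the mean of all days, day 0 included, TILD differed from NC in CPOX and FECH. This made 2 of 42 tests at an FDR of 0.05 in limma voom with the steer as a random block, where 1.95% of all tests passed. The steer means of CPOX ran from 12.8 to 18.8 CPM in TILD (median 15.8) and from 17 to 27 in NC (median 20.3). Those of FECH ran from 25.7 to 30.4 CPM in TILD (median 28.2) and from 30.3 to 39.3 in NC (median 33.9). Both pairs of groups overlapped at the edge, with Tild3 and Tild7 in CPOX and Tild8 in FECH above the lowest NC steer.

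The fitted difference was -0.40 for CPOX (SE 0.11, limma FDR = 0.012) and -0.27 for FECH (SE 0.07, FDR = 0.0084) on the log2 scale. PPOX was higher in TILD by 0.69 (SE 0.25) and did not pass (limma FDR = 0.092). Its steer means ran from 5.77 to 7.81 CPM in TILD and from 2.97 to 4.87 in NC, without overlap, and the share of all genes without overlap is not given here. ALAS2 had a median steer mean of 100 CPM in TILD and 246 in NC, with a fitted difference of -1.60 (SE 0.79, limma FDR = 0.229).

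Before the dose, on day 0, the fitted differences had the same signs, and none passed. TILD differed from NC by -0.36 in CPOX, -0.30 in FECH, 0.67 in PPOX and -3.15 in ALAS2 on the log2 scale, with unadjusted edgeR p of 0.0065, 0.013, 0.018 and 0.00038 (FDR from 0.274 to 0.707). ALAS2 on day 0 ran from 8.23 to 35.7 CPM in TILD and from 21.6 to 312 CPM in NC. On day 21 the differences were -0.71 in CPOX and -0.39 in FECH, and both missed the threshold (edgeR FDR = 0.135 for CPOX). TILD and NC did not overlap in either enzyme on that day, and the share of all genes without overlap is not given here.

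The call for CPOX was lost without NC12 (limma FDR = 0.099) or without Tild2 (FDR = 0.065), and that for FECH without NC15 (FDR = 0.062). TILD shared no lane with NC, and lane and treatment cannot be told apart in this comparison. The summed erythroid markers had medians of 5426 CPM in TILD and 18690 in NC, and the neutrophil markers 3241 and 2539, and their part in the difference was not tested. In the other 5 treatments none of the 35 tests passed, with log2 differences from NC of -0.27 to -0.08 in CPOX and -0.12 to -0.02 in FECH. Over all comparisons of treated groups with each other, the only enzyme test that passed was FECH in TILD against OXYT. It was lower in TILD by 0.24 (limma FDR = 0.024), and the share of all genes that passed there is not given here.

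**Figure D5:**
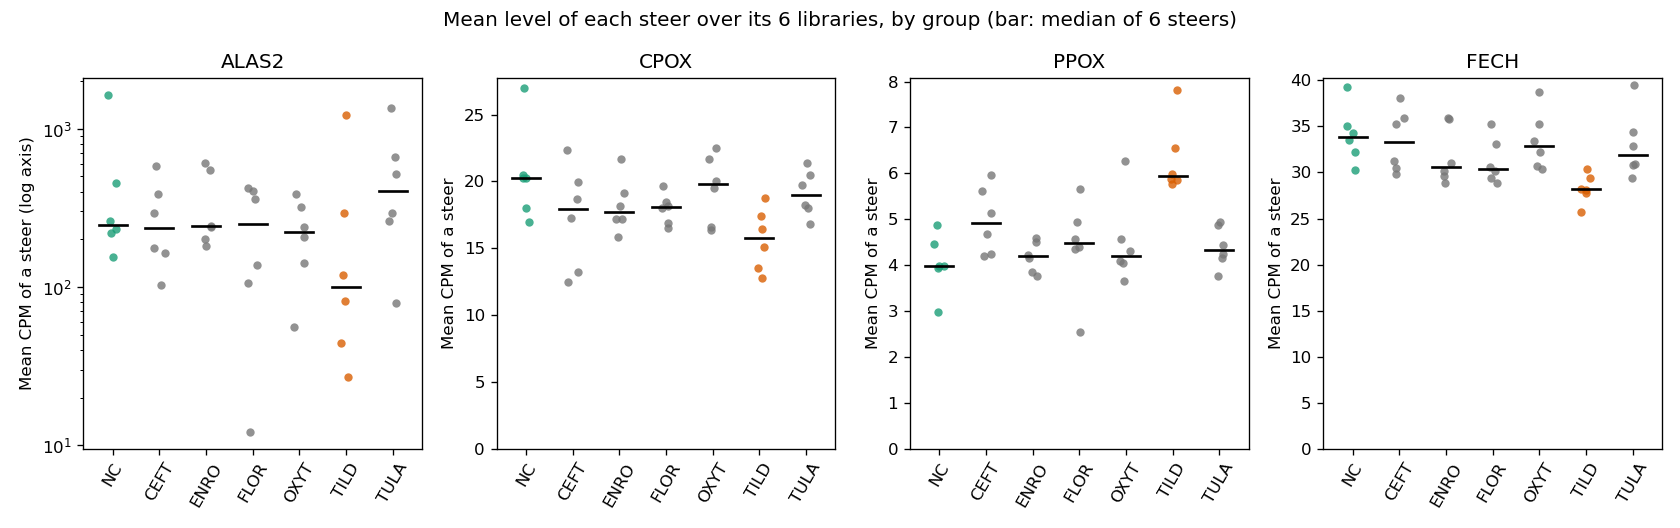
Mean level of each steer over its 6 libraries in CPM (vertical axis, logarithmic for ALAS2 only) in the 7 groups (horizontal axis), for 4 enzymes. Points are steers, 6 in each group, and bars are medians; TILD (orange) lies low in CPOX and FECH and high in PPOX beside NC (green), with medians of 15.8 and 20.3 CPM for CPOX.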

How the data were processed

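Whole blood RNA from 42 steers on 6 days gave 6 libraries a steer. The authors trimmed the reads, aligned them to the bovine genome ARS-UCD1.3, assembled transcripts and deposited whole-number gene counts derived from coverage, 1 column a library. The submitters' processing notes name FastQC 0.11.9, Trimmomatic 0.39, HISAT2 2.1.1, StringTie 2.2.0 and edgeR 3.36.0. The libraries were poly(A) selected and stranded, and none of the 7 enzymes overlaps another gene in the RefSeq table used. The 7 enzymes and all gene lists were chosen with earlier results of these data known.

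Genes above 0.2 CPM in at least 12 libraries were kept (19056 of 33282) and scaled by TMM over all libraries. Every model was fitted on all these genes, and FDR is Benjamini-Hochberg adjusted over them. Days were compared with edgeR 4.0.16 quasi-likelihood tests (R 4.3.3) with steer as a block, at an FDR of 0.05. Treatments were compared with NC on each day, 6 against 6 steers, and by their change from day 0, at an FDR of 0.1. The interaction and change tests took the fit from the treatment and NC libraries and the spread from all libraries. The mean over days was compared with limma 3.58.1 voom, with steer as a random block (correlation 0.359). Steers are separate animals, and in the tests on single days p-values measure the spread between them. In the comparison of means over days, p-values rest on the spread between and within steers. In the tests with steer as a fixed block (days, change from day 0, interaction), the level of each steer is taken out. There p-values measure the spread of libraries within steers. Each treatment was 1 pen. Correlations over steers used 100000 permutations, two-sided. Named genes were the 7 enzymes, the genes of each list that passed the day effect with the 4 largest or 4 smallest log2 fold changes of day 56 against day 0, and the 3 genes most alike to each enzyme. ALAS1, HBB and the markers at or near 0 were named after their values were seen. Scripts were tested on simulated data. Alternatives were other scaling (DESeq2 1.42.0 size factors), no filter, other tests, lane correction by ComBat_seq (sva 3.50.0), lane as a term, single lanes, no steer block and left-out steers.

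Steer numbers pair no animals between groups. The libraries of a steer on different days are paired by animal, which is why steer is the block.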

Additional observations from a re-analysis of the deposited data

Results flagged for a closer look

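Single libraries that stood apart from the other 5 of their group and day, by Dixon's 95% limit, were found in 25 of 294 groups of 6. Chance alone gives about 1 in 20. 15 were high and 10 low, and 8 were in ALAD, 6 in UROD, 4 in CPOX, 2 each in ALAS2, PPOX and FECH, and 1 in UROS.

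In ALAD, steer Tild3 stood apart on 4 days, high at 146 CPM on day 3 and 95.6 on day 7 (the other TILD steers reached 24.1 and 20.8), and low at 4.65 CPM on day 14 and 4.34 on day 21 (the others began at 14.2 and 14.8). ALAD was low at 1.35 CPM in Ceft5 on day 3, at 1.35 in Flor8 on day 21 and at 5.36 in Oxyt1 on day 0, and high at 43.5 in Ceft8 on day 14.

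In UROD the high libraries were Tild3 with 68.7 CPM on day 3 and 53.6 on day 7, NC5 with 78.9 on day 7 and 69.9 on day 14, and Tula6 with 31.7 on day 0. NC12 was low on day 0 with 16.9 CPM. Tild3 and NC5 on those days were also high in ALAS2. In ALAS2 itself, Oxyt9 was low on day 21 with 24.5 CPM (the others 278 to 732) and Tula4 was high on day 56 with 939 (the others 26.8 to 88.9).

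CPOX was high in NC12 on day 3 with 28.1 CPM, in Flor4 on day 56 with 19.7 and in Tula8 on day 14 with 22, and low in Ceft4 on day 14 with 8.83. NC12 on day 3 belongs to the NC group that CPOX of FLOR was compared with. PPOX was low in Ceft10 on day 0 with 0.581 CPM and high in Enro6 on day 7 with 5.42. FECH was high in Enro8 on day 56 with 47.2 CPM and in Oxyt1 on day 56 with 43.2, and UROS was low in Tula8 on day 0 with 8.67.

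The change of UROS from day 0 to day 7 differed between ENRO and NC (edgeR FDR = 0.0972), by the test of the difference itself, and the call was lost with no filter on low counts, with DESeq2 size factors and with no replicate block.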

How the results depend on the processing

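The day effect gave 6 of 7 enzymes in every setting run except lane 2 alone, which gave 4 (ALAS2, UROS, UROD and CPOX). Calls over pairs of days (59) were 38 on lane 1 alone and 35 on lane 2 alone. Treatment calls on single days (1) were 0 with ComBat_seq, with ComBat_seq and the likelihood ratio test, with lane as a term and with no filter, 2 with the likelihood ratio test and 8 with the DESeq2 test. Group calls (2) were 0 with ComBat_seq, where CPOX was -0.27 and FECH -0.21 in TILD, 9 with no replicate block and 4 with no filter. Calls by change from day 0 (1) were 0 with no replicate block, no filter or DESeq2 size factors. Correlated pairs over steers (7) were 2, 1 and 1 on lanes 1, 2 and 3 alone, with 14 steers each, and 3 without TILD. The cause of these moves was not tested.

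The steer block pairs the days of an animal. With no replicate block, 45 pairs of days passed, and ALAS2 on day 56 was 0.52 above day 0 (edgeR FDR = 0.290).

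On single lanes the direction turned in BLVRA on day 14 (-0.17, lane 1), CATHL1 on day 14 (2.55, lane 3), PF4 on day 14 (-0.11, lane 2) and CSF1R on day 56 (0.0054, lane 2). Without 1 steer, CPOX in FLOR on day 3 ranged from -0.47 to -0.37, CPOX in TILD from -0.46 to -0.31 and FECH in TILD from -0.30 to -0.22. PPOX had 24 counts in the library where it was lowest and ALAD 55, which limits both.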
